A study of Mus musculus with 4 samples.

Results

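Neuroblasts were examined in 4 MERFISH sections of the mouse brain. MERFISH counts single RNA molecules in place by repeated rounds of imaging, here for a panel of 383 genes. A cell was taken as a neuroblast when at least 4 of Dcx, Sox11, Sox4, Dlx6os1 and Ccnd2 were detected, when these 5 genes made up at least 6% of its transcripts, and when it held no more than 2 transcripts of Top2a. The rule kept 1162 cells, that is 0.412% of the 281824 cells with at least 10 detected genes and a volume of at least 50 µm³. The cells were thus selected on their measured counts of these 6 genes, and for that reason their contrast with other cells is given as a description, without a test. Age and position had no part in the choice.

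Each section was a frozen coronal slice through the striatum of both hemispheres from a C57BL/6NTac mouse with no transgene or treatment named in the labels. The young group held 2 sections from animals of 2 months, and the aged group held 2 from animals of 18 months. The study describes its replicates as biological, and each section was taken as a separate mouse. No cell identifier occurred in more than 1 section. The first aged section was the shallowest, with a median of 215 transcripts per kept cell, against 400 and 325 in the young sections and 293 in the second aged section.

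Neuroblasts are the young, still migrating neurons of the adult forebrain. They arise from Gfap-bearing stem cells in the wall of the lateral ventricle by way of rapidly dividing progenitors, and travel in chains towards the olfactory bulb, where most become GABA interneurons. Dcx (doublecortin) binds the microtubules of migrating neurons. Sox11 and Sox4 are transcription factors of neuronal differentiation, Dlx6os1 is a long noncoding RNA of the Dlx5 and Dlx6 locus that marks forebrain GABA neurons, and Ccnd2 (cyclin D2) drives division of neuronal precursors. Top2a untangles DNA in dividing cells, and its limit kept the most active dividing progenitors out.

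On the GRCm38 build, Dcx lies on chromosome X at 143855842-143933311, Sox11 on chromosome 12 at 27334264-27342574, Sox4 on chromosome 13 at 28948919-28953713, Dlx6os1 on chromosome 6 at 6820189-6871592 and Ccnd2 on chromosome 6 at 127125162-127152193. All 5 are annotated on the minus strand. 4 of the 5 are protein-coding genes, and Dlx6os1 is annotated as antisense RNA. The panel counts transcripts of the whole gene by probe, so exons and UTRs were not told apart.

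The numbers of neuroblasts were 399 and 471 in the young sections, against 121 and 171 in the aged sections. Both aged sections thus held fewer than either young section. Of the 1162 neuroblasts, 654 had all 5 genes detected. The median neuroblast gave 14.4% and 18.0% of its transcripts to the 5 genes in young sections, against 13.7% and 15.1% in the aged sections. Neuroblasts were small and shallow for these tissues. Their median volume was 403 and 335 µm³ in the young sections, against 531 and 451 µm³ in the aged ones, where the median kept cell had between 698 and 728 µm³. Their median depth was 154 and 133 transcripts in young and 157 and 154 in aged sections. Per cell, neuroblasts of aged sections were thus no shallower than those of young sections, unlike the kept cells as a whole. Per 1000 µm³ of cell volume, neuroblasts held 439 and 464 transcripts in young, against 340 and 412 in aged sections. By volume both aged sections were thus lower. So were the kept cells as a whole, at 681 and 585 in young, against 369 and 506 in aged sections.

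As chosen, the cells were rich in the 5 genes. Levels are given as transcripts per 10000 transcripts of all neuroblasts of a section. Dcx stood at 221 and 210 in young, against 200 and 224 in aged neuroblasts, where other kept cells had 12.08 to 12.99. Sox11 stood at 255 and 261 in young, against 191 and 195 in aged neuroblasts. Dlx6os1 was the most abundant of the 5, at 503 and 590 in young, against 581 and 584 in aged neuroblasts. Ccnd2 reached 284 and 360 in young, against 258 and 206 in aged neuroblasts. Sox4 was at 117 and 106 in the young sections, and at 60.6 and 110 in the aged sections. Sox11 and Ccnd2 were lower in both aged sections, which is given without a test because the rule used them.

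Genes that the rule did not use, ranked by their level over the other kept cells, began with Thbs4, a secreted thrombospondin of the stem cell niche, at 14.3 times the level elsewhere. Marcksl1, an actin-binding protein of growing neurites, followed at 9.82 times, and Dpysl3, a growth cone protein, at 8.83 times. Nnat, a small membrane protein of developing brain, was 8.66 times and Egfr, the growth factor receptor of dividing progenitors, 7.18 times as high. Among the first 15 were also Igfbp5, the intermediate filament gene Vim at 4.76 times, the chromatin protein gene Hmgb3, the Wnt receptor gene Fzd2, the membrane linker gene Ezr, the transcription factor gene Meis2 at 3.84 times, Sox9 and Gfap at 3.57 times, the last 2 being shared with astrocytes and stem cells. Top2a, which the rule limited, and the sparse Ppp1r14b, which was at 0 in the first aged section, completed the 15. Of all 383 panel genes, 91 were higher in neuroblasts than in the other kept cells in all 4 sections, and 166 were lower.

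Gene groups are described by how many members were higher or lower than in other kept cells. Of 16 immature neuron and neurite genes, 10 were higher than in other kept cells in every section and 4 were lower. Of 14 neural stem cell and radial glia genes 9 were higher and 0 lower. Of 11 chromatin and cell division genes, 8 were higher in every section and 1 was lower. Both GABA neuron genes were higher, with Gad2, which makes GABA, between 90.3 and 156 in neuroblasts. Of 12 mature neuron genes, 10 were lower in every section and 0 higher.

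Summed markers of medium spiny neurons, oligodendrocytes, oligodendrocyte precursors, microglia and vascular cells were lower than in other kept cells in every section. Those of astrocytes were not. All 10 medium spiny neuron genes and all 8 oligodendrocyte genes were lower than in other kept cells in every section. The 8 oligodendrocyte genes summed to 104 and 139 transcripts per 10000 in young neuroblasts and 76.4 and 41.1 in aged ones, with 0 of the 8 absent from all sections. The 11 microglia genes summed to 39.3 and 29.3 in young, against 78.2 and 52.2 in aged neuroblasts. In the other kept cells they summed to 74.5 and 74.0 in young, against 79.5 and 70.7 in aged sections. The 8 astrocyte genes summed to 431, 388, 314 and 369 in the first young, second young, first aged and second aged sections, against 305, 326, 378 and 353 in the other kept cells. They were thus higher in all sections but the first aged one. Of the 8, 2 were higher and 3 lower in every section. In 163 of the 1162 neuroblasts, 1 list of another class made up at least 10% of the transcripts. This share of mixed cells was 16.5% and 15.3% in the young, against 6.61% and 9.94% in the aged sections.

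At the limits of the rule, the cells differed by degree. Cells with 6 to 7% of transcripts in the 5 genes numbered 40 and 33 in the young, against 14 and 18 in the aged sections, and those with 5 to 6%, just outside, numbered 57, 49, 19 and 32. Just inside that limit, Snhg11, a noncoding RNA of mature neurons, was already at 350 to 756 transcripts per 10000, and just outside it was at 408 to 554. Cells with 4 of the 5 genes numbered 179, 197, 65 and 67, and those with 3 numbered 164, 181, 102 and 90.

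Neuroblasts were not spread evenly. In each section most lay in bands on both sides of the slice, more broken in the aged sections, and the rest lay apart from them, as the maps of the sections show. The nearest other neuroblast was a median of 12.5 and 10.9 µm away in young and 14.3 and 11.9 µm away in aged sections. Among the 10 nearest cells of a neuroblast, 2.61 and 3.21 were neuroblasts in young sections, against 2.05 and 2.90 in the aged sections, where an even spread over the kept cells would give between 0.0175 and 0.0664.

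**Figure D1:**
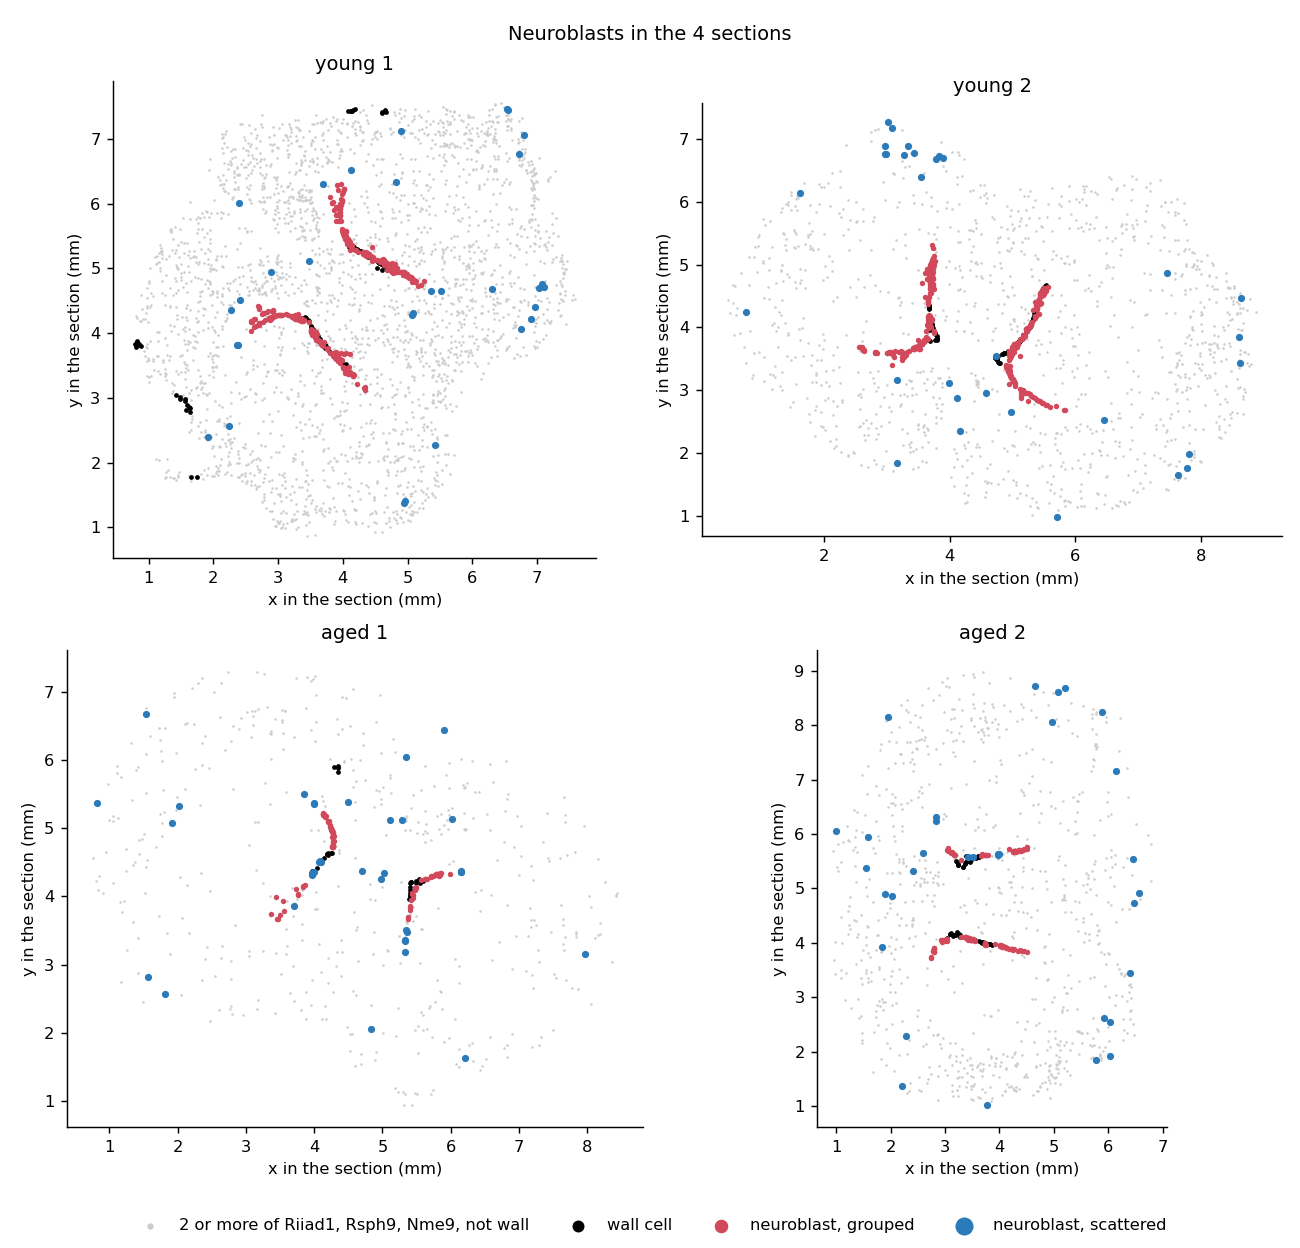
Positions of neuroblasts in the 4 sections, both axes in millimetres of the section as imaged; red points are grouped and blue points scattered neuroblasts, black points wall cells and grey points the other cells with at least 2 of Riiad1, Rsph9 and Nme9 detected. Red bands run along black points in both hemispheres, and the young sections hold 368 and 440 red points where the aged sections hold 85 and 138.

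To describe this, neuroblasts were linked wherever 2 of them lay within 150 µm, and those in linked sets of at least 5 cells were called grouped and the others scattered. The limits were chosen after the maps had been seen. Grouped neuroblasts numbered 368 and 440 in the young, against 85 and 138 in the aged sections, and scattered ones 31 and 31 in the young, against 36 and 33 in the aged sections. The share that was grouped was 92.2% and 93.4% in young sections, against 70.2% and 80.7% in aged sections. Young sections held 2 and 4 linked sets, against 4 and 8 in aged ones. In the first young section, 2 sets of 189 and 179 cells reached over 2023 and 2099 µm. In the second young section, the largest set held 219 cells over 1972 µm. In the aged sections the largest sets held 38 cells over 892 µm and 32 cells over 268 µm. A set of 26 cells in the second aged section came no nearer than 553 µm to a wall cell, as defined below, and a set of 9 cells in the second young section no nearer than 1060 µm.

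The number of neuroblasts was first set against ependymal cells, the ciliated cells that line the ventricles, taken as kept cells with at least 2 of Riiad1, Rsph9 and Nme9 detected. This rule found 2697 and 1255 cells in the young and 497 and 920 in the aged sections. These cells did not bear out the name. They were deep cells, with medians of 1085 and 947 transcripts in the young and 530 and 817 in the aged sections. They lay over the whole slice, so that 84.3% and 55.8% of all cells that were not neuroblasts were within 100 µm of one in young sections, against 31.6% and 45.8% in the aged sections. The synaptic vesicle gene Syp stood between 248 and 285 transcripts per 10000 in them, against 172 to 205 in all kept cells outside the neuroblasts. They are therefore called 2-of-3-gene cells here.

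Per 100 of the 2-of-3-gene cells there were 14.8 and 37.5 neuroblasts in young sections, against 24.3 and 18.6 in the aged sections. The ages overlapped. The means were 26.2 ± 16.1 (SD, n = 2) and 21.5 ± 4.07 (SD, n = 2), and a two-sided exact permutation test gave p = 1. With the first young section set aside the aged mean was 0.572 times the young value, and without the second young section it was 1.45 times, so the direction rested on single sections. With 2 sections per age no value below 0.333 can come from this test.

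A stricter set was then taken after the maps had been seen. It holds 2-of-3-gene cells in which Riiad1, Rsph9 and Nme9 made up at least 0.5% of the transcripts and which had at least 3 others of the kind within 100 µm. These wall cells numbered 96 and 70 in the young, against 30 and 51 in the aged sections. Nnat stood between 349 and 447 in them, Rassf9 between 64.4 and 118 and Vim between 119 and 266 transcripts per 10000, while Syp stood between 4.4 and 66.3. Most lay along the bands of neuroblasts, and some small sets lay apart from them in the first young and the first aged section. Per 100 wall cells there were 416 and 673 neuroblasts in the young and 403 and 335 in the aged sections. Both aged values were lower, with a mean ratio of 0.679 (exact permutation p = 0.333), and 403 and 416 lay close together. Wall cells were also fewer in the aged sections. The labels do not give the level at which a slice was taken, so level and age cannot be told apart.

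Against all kept cells the ages did not overlap. Neuroblasts made up 58.7 (95% Wilson interval, 53.2 to 64.7) and 66.5 (60.8 to 72.8) of every 10000 kept cells in the young sections. In the aged sections they made up 17.7 (14.8 to 21.1) and 22.9 (19.7 to 26.6). These intervals cover counting error only. The means were 62.6 ± 5.57 (SD, n = 2) and 20.3 ± 3.70 (SD, n = 2), a ratio of 0.324 (exact permutation p = 0.333). Thinning every section to the depth of the shallowest gave a ratio of 0.354, and thinning each cell to 100 transcripts gave 0.307.

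Grouped and scattered neuroblasts were counted apart. Grouped neuroblasts were 54.1 and 62.2 per 10000 kept cells in the young and 12.4 and 18.5 in the aged sections, a ratio of means of 0.266 (exact permutation p = 0.333). Scattered neuroblasts were 4.56 and 4.38 per 10000 in the young, against 5.26 and 4.42 in the aged sections, which overlapped (ratio 1.08, exact permutation p = 0.667). Linking depends on how densely neuroblasts lie, and its part in this split was not tested. In the first aged section the scattered cells lay a median of 592 µm from a wall cell, against 1115, 2427 and 2443 µm in the first young, second young and second aged sections, and several stood along its bands on the map.

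Cells that passed the 5-gene part of the rule but held more Top2a than its limit allowed were counted too. Of all cells that passed the 5-gene part of the rule, 25.1% (95% Wilson interval, 21.6 to 29.0) and 25.5% (22.2 to 29.0) held more than 2 Top2a transcripts in the young sections. In the aged sections 11.7% (7.32 to 18.1) and 10.9% (7.27 to 16.1) did. The ages did not overlap, which is given without a test because the rule used Top2a. Here too the intervals cover counting error only. These cells numbered 134, 161, 16 and 21, and Hmgb2, a chromatin protein of dividing cells, stood between 16.5 and 18.9 transcripts per 10000 in them, against 0.98 to 4.90 in the neuroblasts. Young cells of this kind had median depths of 329.5 and 284 transcripts, against 163 and 229 for aged ones. The limit is a number of transcripts, and the part of depth in this share was not tested.

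**Figure D2:**
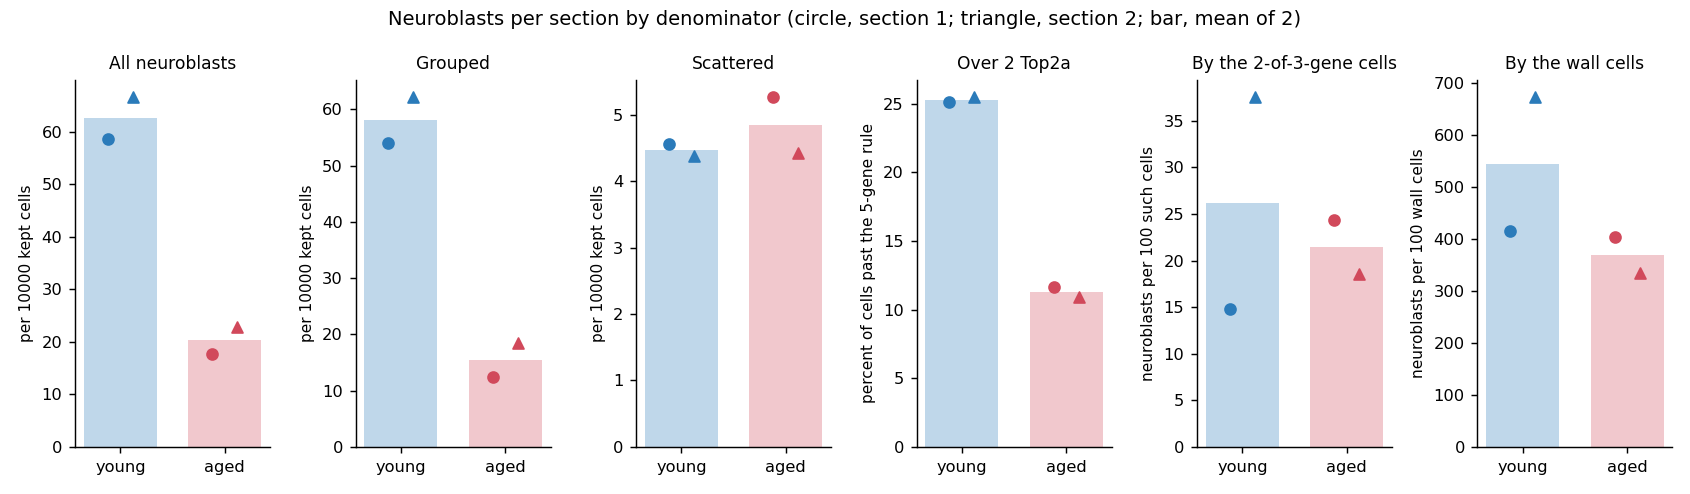
Neuroblasts per section by denominator, with counts or percentages on the vertical axes as labelled; bars are means of 2 sections, circles the first and triangles the second section of an age. Aged points lie below both young points in the panels for all and grouped neuroblasts, for cells over the Top2a limit and for wall cells, and the ages overlap in the panels for scattered neuroblasts and for the 2-of-3-gene cells.

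Neuroblasts lay close to the wall cells. The 2 sets overlap, since 15 and 11 neuroblasts in the young and 1 and 2 in the aged sections passed the 2-of-3-gene rule. Some neuroblasts of both young sections and of the second aged section were themselves wall cells, and these counted at a distance of 0 µm. Within 100 µm of a wall cell were 46.1% and 40.1% of the neuroblasts in the young and 23.1% and 34.5% in the aged sections. Of the other kept cells, 2.31% and 1.68% lay as near in the young and 1.01% and 1.09% in the aged sections. Both aged sections were below both young ones (exact permutation p = 0.333), for neuroblasts and for other cells alike. Within 50 µm of a wall cell, neuroblasts made up 1343 and 1836 of every 10000 kept cells in the young and 408 and 777 in the aged sections. At 200 to 500 µm they made up 84.8 and 156 in young, against 87.6 and 70.1 in aged sections, where the ages overlapped. Beyond 1000 µm they made up 5.68 and 7.32 in young, against 2.18 and 4.16 in aged sections.

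**Figure D3:**
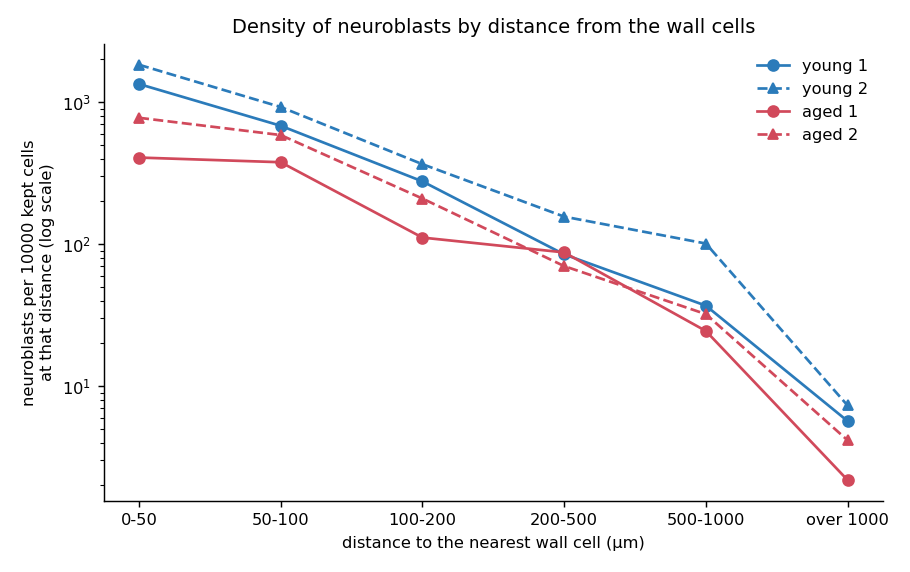
Neuroblasts per 10000 kept cells (vertical axis, log scale) by distance to the nearest wall cell in µm (horizontal axis), 1 line per section, young in blue and aged in red. Every line falls with distance, and the 2 young lines stand above the 2 aged lines in all classes other than 200 to 500 µm, where the ages overlap.

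Within 100 µm of a 2-of-3-gene cell were 81.0% and 80.5% of the neuroblasts in the young and 45.5% and 80.1% in the aged sections. The aged mean was lower by 17.9 percentage points (exact permutation p = 0.333). Without the first aged section, the shallowest, the difference was -0.593 percentage points. Neuroblasts on either side of this distance were summed within each section and compared with edgeR, with the section as a block. Of 212 genes tested, 15 were called at an adjusted p of 0.05, which is 7.08% of the genes. Nearer cells were higher in Acta2, an actin of smooth muscle (log2 fold change 2.94 ± 0.49, SE, adjusted p = 0.00768), in Crym and Pltp, and in Aqp4, the astrocyte water channel, and Timp3. Farther cells were higher in the oligodendrocyte genes Mal, Cldn11, Mobp and Trf, in the alarmin gene Il33, and in Gatm, Desi1, Dio2, Igfbp5 and Gfap. Without the first young section edgeR called 0 genes (33 at an unadjusted p under 0.05), and without mixed cells 2 were. With wall cells in place of 2-of-3-gene cells, 87 genes were called.

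Grouped and scattered neuroblasts were then compared in the same way, by edgeR with the section as a block. The grouping used position alone. Of the 383 genes 193 passed the filter on low counts, and 122 of them (63.2%) were called. In grouped cells 63 genes (32.6%) were higher, and in scattered cells 59 (30.6%). Those counts hold 5 genes that the rule used, Dcx, Sox11, Sox4, Ccnd2 and Top2a, whose calls are not read. Among the 187 genes outside the rule 117 were called, 58 higher in grouped and 59 in scattered cells. Leaving out a section gave between 82 and 130 calls, of which between 79 and 113 were among the 122. The lowest number came without the second aged section, with 79 of its 82 calls shared. The fit pools 8 sums, of which those of scattered cells come from 31 to 36 cells each.

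Mature neuron genes were higher in scattered cells. Of the 12 on the list, all were tested, 11 were called higher in scattered cells and 0 in grouped cells, with a median log2 fold change (grouped over scattered) of -2.26 where that of all tested genes was 0.08. Snhg11 stood at 705, 680, 665 and 651 transcripts per 10000 in scattered neuroblasts of the first young, second young, first aged and second aged sections. In grouped neuroblasts it stood at 18.8, 30.3, 55.1 and 36.2, so the groups were far apart in all 4 sections (log2 fold change -4.59 ± 0.29, SE, adjusted p = 0.000158). Syp stood at 203, 247, 219 and 270 in scattered and 30.8, 26.6, 49.5 and 27.8 in grouped cells. Cplx2, which regulates vesicle fusion, stood at 205, 229, 178 and 208 in scattered and 23.7, 22.1, 40.3 and 29.9 in grouped cells. For both genes the lowest scattered value lay above the highest grouped value.

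Atp2b2, a calcium pump gene of the same list, was 11.1-fold higher in scattered cells. Outside the list, genes with large changes were the synaptic adhesion gene Clstn3, 7.68-fold higher in scattered cells, the glutamate receptor gene Grm5, 7.60-fold, and the channel subunit gene Unc80, 7.29-fold. Among those with large changes were also Kctd12, Nap1l5, Htr2c, the serotonin receptor gene, and Pcsk2, a protease of secretory granules, between 6.04-fold and 7.73-fold. Both GABA neuron genes were higher in scattered cells, Gad2 at 227, 260, 138 and 312 against 94.3, 69.6, 59.4 and 80.0 in grouped cells. Of 6 tested medium spiny neuron genes 3 were higher in scattered cells and 0 in grouped cells.

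Most stem cell and radial glia genes that could be tested were higher in grouped cells. Of 9 tested neural stem cell and radial glia genes, 7 were higher in grouped and 2 in scattered cells, the latter being Id2 and Egfr. Fzd2 had the largest fold change, at 27.2, 17.9, 18.6 and 18.3 in grouped cells and 0, 1.27, 6.71 and 1.51 in scattered cells (log2 fold change 3.06 ± 0.66, SE, adjusted p = 0.00649). Thbs4 stood at 38.7, 34.5, 53.3 and 33.6 in grouped and 1.76, 3.17, 20.1 and 0.755 in scattered cells. Gfap, the filament of astrocytes and stem cells, was 4.54-fold and Sox9 4.44-fold higher in grouped cells. The scattered cells of the first aged section were highest of the 4 for Fzd2, Thbs4 and Gfap.

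Of 15 tested immature neuron and neurite genes, 7 were higher in grouped and 4 in scattered cells, so the list went both ways. Nnat stood at 145, 157, 119 and 107 in grouped and 13.2, 6.97, 42.2 and 30.2 in scattered cells. Meis2 was 4.83-fold, Dpysl3 4.25-fold and Tubb3, a neuronal tubulin, 2.94-fold higher in grouped cells. Plppr4, Gap43, Elavl2 and Nsg2 were the 4 higher in scattered cells. Tm4sf1, Ahnak, Ezr, Plin3 and Slco1c1 were the other genes with large changes, between 4.55-fold and 5.72-fold higher in grouped cells. Of 6 tested chromatin and cell division genes, Top2a left out, 4 were higher in grouped cells and Ran alone in scattered cells.

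The genes of the rule are given without a test. Dlx6os1 stood at 523, 594, 567 and 630 in scattered and 500, 589, 590 and 562 in grouped cells, much the same in both. Dcx stood at 88.1, 49.4, 70.9 and 74.7 in scattered and 241, 242, 284 and 297 in grouped cells. Sox11 stood at 66.1, 29.1, 76.6 and 40.0 in scattered and 283, 307, 266 and 270 in grouped cells. Of these 3 genes, Dlx6os1 alone was thus as high in scattered as in grouped cells. Scattered cells were also deeper and larger, with median depths of 278, 389, 219 and 289 transcripts against 144, 128, 146 and 140, and median volumes of 544, 861, 785 and 639 µm³ against 389, 320, 504 and 404 µm³. Grouped cells held the 12 mature neuron genes at a summed level of 554 to 778. The scattered cells, 131 in all, held them at 2401 to 2745, above the 2079 to 2239 of the other kept cells, which goes against their label, and they are called by the rule that found them.

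**Figure D4:**
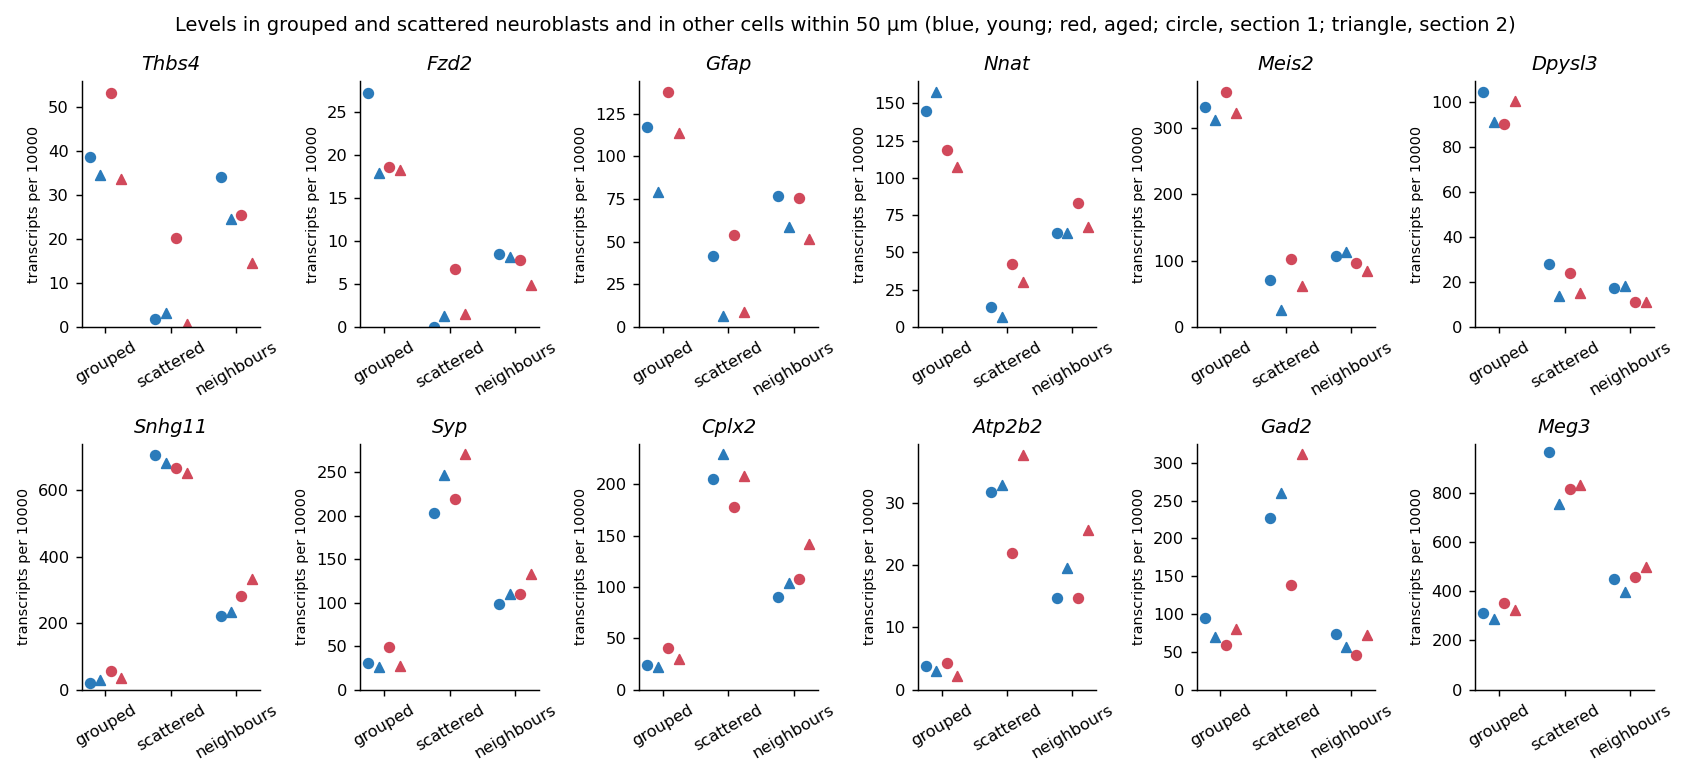
Transcripts per 10000 of 12 genes in grouped neuroblasts, scattered neuroblasts and other kept cells within 50 µm of a neuroblast, 1 point per section (blue young, red aged, circle first and triangle second section). In the upper row grouped cells lie above scattered cells in every section, and in the lower row scattered cells lie above grouped cells in every section.

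With age, neuroblasts as a whole changed in few genes. Counts were summed over the neuroblasts of each section and the 2 ages compared with edgeR. Of 293 genes tested, 8 (2.73%) were called, 6 higher and 2 lower in aged sections, and 58 had an unadjusted p under 0.05. Leaving out a section gave between 9 and 23 calls, of which 3 of the 8 were kept without the first young section and all 8 without the first aged section. With library sizes alone in place of TMM scaling, 0 were called (56 at an unadjusted p under 0.05), while DESeq2 called 10 and limma 8, including all 8.

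The 3 mature neuron genes among the calls were Snhg11, Syp and Cplx2. Snhg11 stood at 106 and 137 in young, against 294 and 237 in aged neuroblasts (log2 fold change 1.14 ± 0.19, SE, adjusted p = 0.0149). Syp stood at 52.9 and 62.9 in young, against 116 and 107 in aged neuroblasts (log2 fold change 0.97 ± 0.19, SE, adjusted p = 0.0246). Cplx2 stood at 46.9 and 56.2 in young, against 94.4 and 88.1 in aged neuroblasts (log2 fold change 0.85 ± 0.19, SE, adjusted p = 0.0401). All 12 mature neuron genes had a fold change above 0, with a median log2 fold change of 0.66 where that of all genes was 0.00. The share of scattered cells, which were rich in these genes, moved in the same direction. Its part in the change was not tested. Among grouped cells Snhg11 stood at 18.8 and 30.3 in young, against 55.1 and 36.2 in aged sections, with a log2 fold change of 0.87 ± 0.29 (SE, adjusted p = 0.190, edgeR). There Syp had a log2 fold change of 0.40 (adjusted p = 0.472, edgeR) and Cplx2 of 0.61 (adjusted p = 0.240, edgeR), so none of the 3 passed. In grouped cells 11 of the 12 mature neuron genes had a fold change above 0, with a median log2 fold change of 0.35 where that of all genes was -0.06, and 8 of 12 were above both young sections in each aged section, where 76 of all 383 genes (19.8%) were.

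Ctss, the gene of the lysosomal protease cathepsin S of microglia, stood at 4.73 and 3.76 in young, against 21.1 and 12.8 in aged neuroblasts (log2 fold change 2.00 ± 0.35, SE, adjusted p = 0.0149). It was the 1 gene of 275 (0.364%) called in grouped cells, where it stood at 3.23 and 4.25 in young, against 32.2 and 14.97 in aged sections (log2 fold change 2.61 ± 0.44, SE, adjusted p = 0.0315), and 41 genes there had an unadjusted p under 0.05. Without the first or the second young section, or without mixed cells, edgeR called 0 genes in grouped cells (28, 27 and 30 at an unadjusted p under 0.05). No other of the 6 tested microglia genes passed. Of the 11 on the list, 7 were above both young sections in each aged section, where 74 of all 383 genes (19.3%) were, and its summed level in grouped cells was 28.1 and 32.1 in young, against 116 and 59.9 in aged sections. Ctss in the other kept cells stood at 6.85 and 8.20 in young, against 11.8 and 8.94 in aged sections, below aged neuroblasts. P2ry12, a receptor of resting microglia, stood at 3.60 and 2.92 in young, against 6.77 and 4.43 in aged neuroblasts. The part of microglial RNA in the change of Ctss was not tested.

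Penk, which encodes the enkephalin peptides of medium spiny neurons, stood at 10.6 and 20.4 in young, against 44.8 and 37.2 in aged neuroblasts (log2 fold change 1.41 ± 0.32, SE, adjusted p = 0.0401). In grouped cells it stood at 10.1 and 20.1 in young, against 44.0 and 43.5 in aged sections (adjusted p = 0.0530, edgeR). Of the 10 medium spiny neuron genes, 3 were higher in both aged sections, near the 19.3% of all genes. In grouped cells 6 of the 10 were, against 19.8% of all genes. Plppr4, a lipid phosphatase-related protein of neurites, stood at 8.33 and 10.2 in young, against 22.2 and 20.7 in aged neuroblasts (log2 fold change 1.23 ± 0.29, SE, adjusted p = 0.0463).

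The 2 genes lower in aged neuroblasts belong to myelin. Mag stood at 10.1 and 14.5 in young, against 3.76 and 1.97 in aged neuroblasts (log2 fold change -2.14 ± 0.43, SE, adjusted p = 0.0246). Mal stood at 22.95 and 23.9 in young, against 11.3 and 7.63 in aged neuroblasts (log2 fold change -1.31 ± 0.30, SE, adjusted p = 0.0401). All 8 oligodendrocyte genes had a fold change below 0, with a median log2 fold change of -1.33. Mixed cells were a larger share of the young neuroblasts, and without them Mal had a log2 fold change of 0.22 and 2 of the 8 genes were called. The oligodendrocyte list, which holds Mag and Mal, is among those that define a mixed cell. Leaving mixed cells out thus removes cells rich in these genes by definition, and this fit cannot show what part they had in the fall. In the other kept cells within 50 µm of a neuroblast, Mag stood at 51.1 and 44.9 in young, against 35.0 and 28.3 in aged sections.

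**Figure D5:**
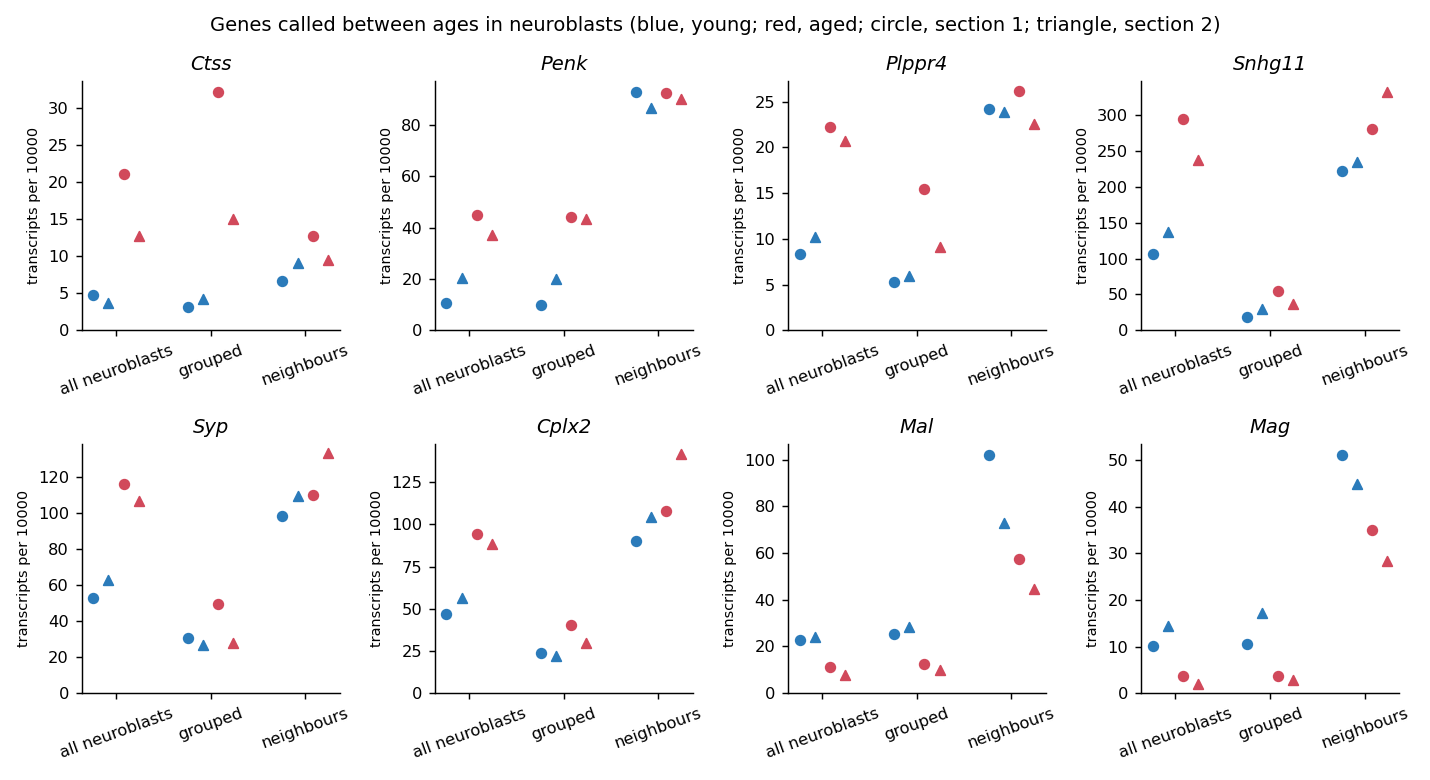
Transcripts per 10000 of the 8 genes called between the ages, in all neuroblasts, in grouped neuroblasts and in other kept cells within 50 µm, 1 point per section (blue young, red aged, circle first and triangle second section). For the 6 genes higher with age and the 2 lower, the ages do not overlap in all neuroblasts, and for Snhg11, Syp and Cplx2 the grouped cells of both ages lie low.

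Chromatin and cell division genes were low in aged neuroblasts without passing the test one by one. The 11 genes summed to 136 and 138 transcripts per 10000 in young, against 82.7 and 89.3 in aged neuroblasts. Of the 11, 9 were below both young sections in each aged section, where 101 of all 383 genes (26.4%) were, and the median log2 fold change of the 10 tested was -0.78. In grouped cells they summed to 146 and 154 in young, against 93.5 and 98.6 in aged sections, with 9 of 11 lower in both aged sections, where 97 of all 383 genes (25.3%) were. Without Top2a, which the rule limited, 8 of 10 were lower in both aged sections, in all and in grouped neuroblasts alike. In the other kept cells within 50 µm the 11 genes, Top2a among them, summed to 121 and 126 in young, against 78.6 and 73.7 in aged sections. Those neighbours can include cells set aside for more than 2 Top2a transcripts, which were fewer in the aged sections. The part of such cells in the fall among neighbours was not tested. In all kept cells outside the neuroblasts the sums were 59.1 and 60.7 in young, against 50.5 and 56.9 in aged sections. The change in neuroblasts was set against that in the cells within 50 µm, as described below. There 0 of the 11 were called, where 1 of all 372 genes (0.269%) was.

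Of 16 immature neuron and neurite genes, 1, Plppr4, was called with age. In both aged sections 8 of the 16 were lower, against 26.4% of all genes, and 2 were higher, against 19.3%. Tubb3 stood at 80.2 and 94.2 in young, against 54.5 and 56.4 in aged neuroblasts (adjusted p = 0.111, edgeR). Pou3f2, a transcription factor of migrating neurons, stood at 83.0 and 86.2 in young, against 48.9 and 58.3 in aged neuroblasts (adjusted p = 0.111, edgeR). In neither case did the ages overlap. Of 13 tested stem cell and radial glia genes, 11 interferon and MHC class I genes, 6 complement and reactive glia genes and 8 stress and cell death genes, 0 were called in either direction.

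The change with age in neuroblasts was set against that in the other kept cells within 50 µm, in 1 model with the section as a block. Of 372 genes, 1 (0.269%) was called, and 59 had an unadjusted p under 0.05. Nnat stood at 128 and 133 in young, against 88.8 and 82.2 in aged neuroblasts, while in their neighbours it stood at 63.1 and 63.2 in young, against 83.2 and 67.3 in aged sections. The difference between the log2 fold changes was -0.91 ± 0.17 (SE, adjusted p = 0.0349). Without the first young or the first aged section edgeR called 0 genes (31 and 34 at an unadjusted p under 0.05). Without the second young section 3 genes were called and Nnat was not, and without the second aged section 38 were, Nnat among them. The neighbours include wall cells, in which Nnat was high. Among the neighbours, Top2a stood at 28.5 and 31.9 in young, against 12.4 and 6.78 in aged sections. This is given without a test because the rule used Top2a. Cells that the rule set aside for more than 2 Top2a transcripts could count as neighbours, and they were fewer in the aged sections.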

How the data were processed

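The authors cut 10 µm frozen coronal slices, imaged them by MERFISH (Vizgen), used MERLIN for decoding, and outlined single cells with the Vizgen software. The deposited values are whole-number transcript counts per gene and cell with no normalization, the volume of each cell as a signal in µm³, and its position in µm. A deposited table of mean signal per gene served only to check the counts. How far probe design, decoding error and segmentation alter a count could not be read from the files, and a transcript near a cell border can be assigned to the wrong cell.

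Cells with at least 10 genes and 50 µm³ were kept, the filter that the study names. Between 18765491 and 36035355 transcripts per section were in kept cells, and between 26588 and 95868 in neuroblasts. Counts were summed per section and set of cells and tested with edgeR 4.0.16 (quasi-likelihood, filterByExpr, TMM, Benjamini-Hochberg, threshold 0.05) in R 4.3.3. Levels are transcripts per 10000. Single values were compared by two-sided exact permutation over sections. The scripts were tested on simulated data. DESeq2 1.42.0, limma 3.58.1, other filters, cell rules, scalings and thinning, and leaving out each section, were alternatives. Wall cells and the split into grouped and scattered cells were chosen after seeing the data.

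The members and gene lists were chosen with earlier results of these data known. Named genes are those of the rule, the 15 highest over other cells, up to 12 higher and 12 lower genes per comparison by fold change among those called, and up to 4 abundant genes per list; others named were chosen after their values were seen. A gene that this rule would name is not reported here. Lists whose genes are not described singly (guidance and adhesion, oligodendrocyte precursor, vascular) had 0 calls with age. Gene positions are from GENCODE M21 on GRCm38.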

Additional observations from a re-analysis of the deposited data

Results flagged for a closer look

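For Nnat, a small membrane protein gene of developing brain, the change with age differed between neuroblasts and the other kept cells within 50 µm. The difference of the log2 fold changes was -0.91 by the interaction term of edgeR (adjusted p = 0.0349), and this test drew attention to it. Both aged sections were lower than both young in neuroblasts, and both were higher in the neighbours. The direction was kept in 9 of 9 alternatives, and the call in 5 of 9. Leaving out a section kept the call only without the second aged section. No explanation was tested.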

How the results depend on the processing

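The ratio of neuroblasts per 100 of the 2-of-3-gene cells, 0.821, turned to 1.16 with all 3 genes required, to 1.72 with clustered cells and to 2.99 for scattered cells. It ranged from 0.572 to 1.45 when each section was left out, the highest without the second young section, and kept its direction in 15 of 19 alternatives. The ratio per 10000 kept cells, 0.324, kept its direction in 13 of 14 (0.282 to 0.366 leaving out sections) and was 1.08 for scattered cells. The difference of -17.9 percentage points within 100 µm ranged from -35.3 to -0.593, the smallest without the first aged section. The 8 calls with age became 0 without TMM, 0 with all 5 genes required (26 at an unadjusted p under 0.05), 3 without the low-count filter, 28 with the replicate block, 42 with sections thinned, 2 without mixed cells, 1 in grouped cells, and 9 to 23 leaving out a section. The 1 call in grouped cells became 15 without TMM, 4 with DESeq2, 12 without the filter, 22 thinned, 0 with limma, the replicate block or mixed cells left out (46, 37 and 30 unadjusted), and 0 to 21 leaving out a section. Against 15 near and far calls there were 4 at 200 µm (0 of the 15 among them), 2 without mixed cells, 62 with clustered (9 shared) and 87 with wall cells (11 shared), and 0 to 20 leaving out a section, 0 without the first young section. The 1 interaction call became 0 at 25 µm (47 unadjusted), 7 with DESeq2, 17 without the filter, 3 without mixed cells, 9 in grouped cells, and 0 to 38 leaving out a section. The 122 grouped and scattered calls stayed between 82 and 130. Mal turned to 0.22 (adjusted p = 0.876, edgeR) without mixed cells, which are defined in part by the oligodendrocyte list that holds Mal. The cause was not tested. Deviations of same-numbered sections had correlations of -0.00457 in all and -0.0313 in grouped neuroblasts. With 2 sections per age the deviations within an age mirror each other, so these values cannot show whether sections were paired. The replicate block rests on the section numbers alone. Sets were as small as 31 scattered cells in a section, and 2 sections per age limit the precision.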
